A study of Mus musculus with 8 samples.

Results

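The genes described here are 9 of the 27179 genes in the expression table: Cd3d, Cd3e, Cd3g, Cd247, Cd4, Cd2, Lck, Zap70 and Lat, which encode the signalling chains of the T cell receptor and the first proteins that act behind it. They were chosen by gene symbol, and each symbol matched a single row. RNA was sequenced from 8 subcutaneous tumors of C26, a mouse colon carcinoma line, grown in male adult CD2F1 mice. In the control group, cxC26 scr, the cachexia-inducing line carried CRISPR/Cas9 with a scrambled guide RNA (n = 4 tumors). In the other group, cxC26 IL6KOs1, the tumors came from 1 subclone of the same line in which the gene for the cytokine IL-6 had been disrupted (n = 4 tumors). The hosts were immunocompetent and carried an intact Il6 gene in both groups, and tumors were taken when the mice had become cachectic. In its growth, cytokine and flow cytometry experiments in CD2F1 mice, the study inoculated more cells of the knockout subclone than of the control line. The knockout tumors grew later there. The paper's RNA-seq methods give neither the dose nor the day. The knockout, the subclone, the cell dose and the age of the tumor therefore cannot be told apart as sources of a difference.

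The T cell receptor recognises peptide bound to MHC molecules through its alpha and beta chains, which have almost no cytoplasmic part of their own. The signal is carried by the CD3 gamma, delta, epsilon and zeta chains (Cd3g, Cd3d, Cd3e and Cd247), whose tails hold tyrosine motifs. The coreceptor CD4 or CD8 brings the kinase Lck to the receptor, Lck phosphorylates the tails, the kinase ZAP-70 docks there, and ZAP-70 phosphorylates the membrane adaptor LAT, on which the downstream enzymes assemble. CD2 is an adhesion and costimulatory receptor of T cells and natural killer cells. In a tumor these transcripts come mainly from infiltrating lymphocytes, although CD4 also occurs on some macrophages and dendritic cells, and the zeta chain, CD2, Lck, ZAP-70 and LAT also occur in natural killer cells.

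By the RefSeq annotation of GRCm38.p6, Cd3g, Cd3d and Cd3e lie together on chromosome 9 within 40092 bases. Cd3g (chr9:44969572-44980431, minus strand) and Cd3d (chr9:44981769-44987052, plus strand) are read away from each other from starts 1338 bases apart, and Cd3e is at chr9:44998735-45009663 on the minus strand. Cd247 is at chr1:165779952-165871153 and Zap70 at chr1:36761798-36782821, both on the plus strand. Cd4 (chr6:124864693-124888247), Cd2 (chr3:101275908-101287939), Lck (chr4:129548344-129573641) and Lat (chr7:126363827-126369705) are all on the minus strand. Reads were counted over exons. Exons of Cd247 overlap those of Pou2f1, a gene on the opposite strand, and the library kit does not mark strand, so reads in the overlap could not be assigned with certainty. Pou2f1 fell by 0.59 on the log2 scale (SE 0.137, limma adjusted p = 0.00581), whereas Cd247 rose.

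The promoters of the 4 signalling chains are shown here. All 4 were higher in the cxC26 IL6KOs1 tumors, as were all 9 genes, but within that group they did not follow the same order. RefSeq promoter sequences (build GRCm38.p6, from 250 bases before to 50 bases after the start, read along the gene's strand) were at hand for 7 of the 9 genes, as 10 promoters. Those of the chains are chr9:44980382-44980681 for Cd3g, chr9:44981536-44981835 for Cd3d, chr9:45009562-45009861 for Cd3e and chr1:165788431-165788730 for Cd247, and capitals mark the hexamer CAGGTG, an E-box sequence, on either strand (CACCTG on the other strand):
Cd3g: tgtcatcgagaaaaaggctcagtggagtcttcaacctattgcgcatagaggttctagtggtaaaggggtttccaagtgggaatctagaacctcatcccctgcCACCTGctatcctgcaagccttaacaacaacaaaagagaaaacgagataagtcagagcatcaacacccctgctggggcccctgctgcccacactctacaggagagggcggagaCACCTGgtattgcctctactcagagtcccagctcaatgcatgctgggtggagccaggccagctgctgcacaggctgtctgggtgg
Cd3d: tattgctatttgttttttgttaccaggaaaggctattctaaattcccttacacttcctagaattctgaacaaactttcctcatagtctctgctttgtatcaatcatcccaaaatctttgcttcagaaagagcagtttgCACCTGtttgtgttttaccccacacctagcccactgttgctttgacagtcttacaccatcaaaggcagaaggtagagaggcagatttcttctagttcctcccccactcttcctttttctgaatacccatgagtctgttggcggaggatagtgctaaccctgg
Cd3e: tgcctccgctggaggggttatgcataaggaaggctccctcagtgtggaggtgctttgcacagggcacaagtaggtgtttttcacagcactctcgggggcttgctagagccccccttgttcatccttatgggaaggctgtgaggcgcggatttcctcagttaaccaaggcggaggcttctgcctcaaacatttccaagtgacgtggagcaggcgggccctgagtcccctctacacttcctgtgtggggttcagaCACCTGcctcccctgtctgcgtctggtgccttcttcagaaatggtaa
Cd247: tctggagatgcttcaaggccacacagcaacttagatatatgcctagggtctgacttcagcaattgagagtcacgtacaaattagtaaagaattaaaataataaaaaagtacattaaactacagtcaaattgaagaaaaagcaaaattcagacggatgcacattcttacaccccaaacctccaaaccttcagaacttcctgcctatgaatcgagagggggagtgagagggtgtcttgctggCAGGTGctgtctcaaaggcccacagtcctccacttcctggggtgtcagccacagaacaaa
The Cd247 window (from base 165788431) lies inside the gene span given above, which begins at 165779952, and so belongs to an inner start. The hexamer was found for 6 of the 7 genes, the 4 chains (at 2 places in Cd3g), Lck and Zap70. It was in 8 of the 10 promoters, against 20.2% of all 32851 promoters of the same length. It was 1 of 8 motifs searched on both strands. AGGAAG, which holds the core of ETS factor sites, was found for 6 of the 7 genes (Cd3d, Cd3e, Cd247, Lck, Zap70 and Lat). It was in 8 of the 10 promoters, against 35.4% of all promoters. TGTGGT, which holds the core of RUNX sites, was found for Lck, Zap70 and Lat but in no promoter of a chain. It was in 3 of the 10 promoters, against 16.8% of all promoters. TATAAA was found for none of the 7 genes, against 13.6% of all promoters. AGATAA (11.2% of all promoters) and CAGCTG (16.3%) were found in Cd3g alone, CCAAT (37.4%) in Zap70 alone, and CTTTGA (16%) in Cd3d, Cd247 and Zap70. In that order these motifs were in 1, 1, 1 and 3 of the 10 promoters. A match describes the letters of these windows and is not evidence that a factor binds there.

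Whole reads could be recovered from the deposited log2 CPM values (reads scaled to a common library size, on the log2 scale), and all values came out whole within 0.01 reads. The libraries held 14158989 to 17048062 reads assigned to genes. For Il6, the gene disrupted, 356, 326, 376 and 438 reads were found in cxC26 scr against 64, 56, 86 and 59 in cxC26 IL6KOs1, a count that takes in host cells and transcripts of the disrupted gene. The 9 genes were scarce. Summed over all 9, cxC26 scr tumors gave 69, 98, 47 and 58 reads and cxC26 IL6KOs1 tumors 336, 205, 213 and 232 reads. In bulk tumor RNA, fewer cells of a type and less RNA per cell cannot be told apart.

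All 9 genes were higher in the cxC26 IL6KOs1 tumors, with log2 fold changes from 1.19 (Lck) to 4.62 (Cd3g) and a median of 2.63, against a median of 0.008 over all genes tested. Each passed limma's moderated test at an adjusted p of 0.05, which was applied to 14931 genes with a mean of at least 5 reads per tumor. In the same comparison 17.9% of all tested genes were called higher and 18.6% lower. For each of the 9 genes every cxC26 IL6KOs1 tumor was above every cxC26 scr tumor in log2 CPM, as was so for 17.1% of tested genes. The mean of 5 of the 9 genes (Cd3d, Cd3e, Cd3g, Cd247 and Cd2) in the cxC26 scr tumors alone was under 5 reads, so these passed the filter only through the group in which they were high. Without any filter, 7 of the 9 genes were called higher, against 7.77% of the 27179 genes, and Lck (adjusted p = 0.067) and Zap70 (adjusted p = 0.154) were not.

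**Figure D1:**
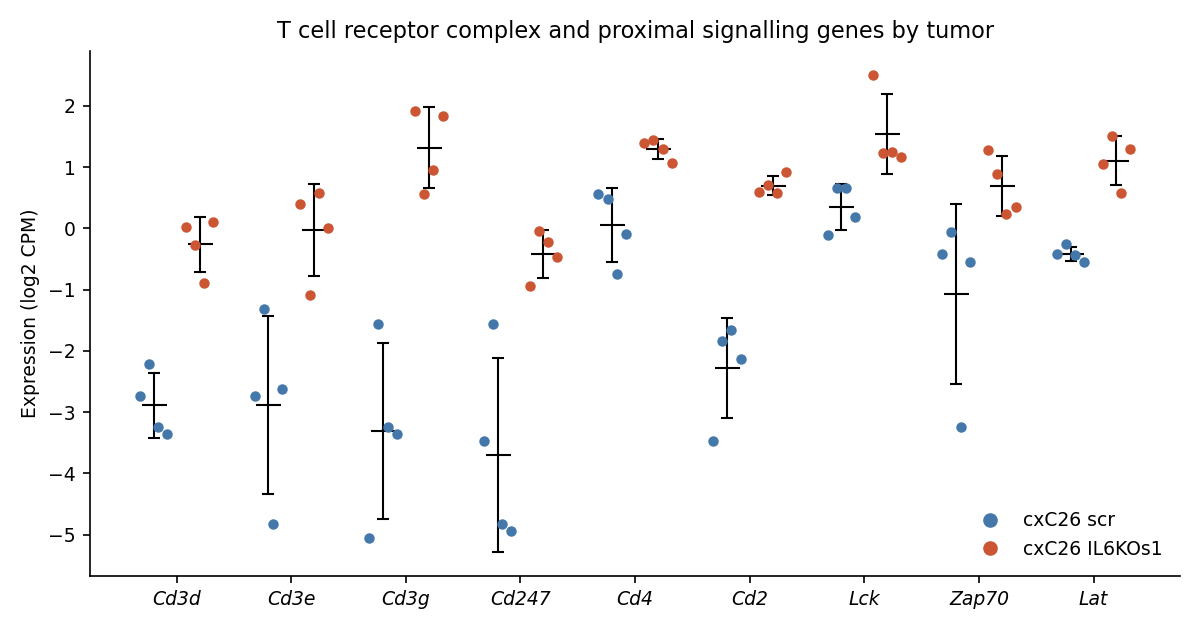
Expression of the 9 genes in log2 CPM (vertical axis) in each tumor, with cxC26 scr in blue and cxC26 IL6KOs1 in red; black lines give the mean and SD of 4 tumors. For each gene the red points lie above the blue points, by the least for Cd3e (0.22 log2 CPM) and by the most for Cd2 (2.24 log2 CPM).

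The CD3 chains were close to absent from the cxC26 scr tumors. Together they received 5, 19, 2 and 4 reads there, against 106, 50, 74 and 90 reads with the knockout subclone. Cd3g, which encodes the gamma chain, had 0, 5, 1 and 1 reads in cxC26 scr and 61, 20, 30 and 51 reads in cxC26 IL6KOs1. Its log2 fold change was 4.62 (SE 0.673, adjusted p = 0.00034), and the pooled CPM differed 24-fold with a 95% counting interval of 11.4 to 60.5. The groups were far apart, the lowest knockout tumor lying 2.12 above the highest control on the log2 scale.

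Cd3d, which encodes the delta chain and starts beside Cd3g, had 2, 3, 1 and 1 reads in cxC26 scr and 16, 11, 8 and 15 reads in cxC26 IL6KOs1. Its log2 fold change was 2.63 (SE 0.505, adjusted p = 0.00183), a pooled ratio of 7.4 (counting interval 3.34 to 19.3). The groups did not overlap. Cd3e, which encodes the epsilon chain, had 2, 6, 0 and 2 reads in cxC26 scr and 21, 6, 23 and 14 reads in cxC26 IL6KOs1. The second tumor of either group had 6 reads, and these tumors were separated only by library size, by 0.22 on the log2 scale. The log2 fold change of Cd3e was 2.85 (SE 0.72, adjusted p = 0.00921), and the pooled ratio was 6.63 (counting interval 3.38 to 14.5).

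Cd247, which encodes the zeta chain, had 1, 5, 0 and 0 reads in cxC26 scr and 8, 13, 13 and 10 reads in cxC26 IL6KOs1. Its log2 fold change was 3.29 (SE 0.769, adjusted p = 0.00601), and the pooled ratio was 7.59 (counting interval 3.22 to 21.8). The groups did not overlap. In all 4 chains the second cxC26 scr tumor was the highest of its group. The counting intervals cover counting error alone, not the spread between tumors.

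Cd4 and Cd2, the coreceptor and the adhesion receptor, differed in their starting level. Cd4 had 24, 22, 8 and 14 reads in cxC26 scr and 42, 37, 38 and 30 reads in cxC26 IL6KOs1. It thus had at least 8 reads in every control tumor, and it rose by 1.25 on the log2 scale (SE 0.321, adjusted p = 0.0102; pooled ratio 2.24, counting interval 1.67 to 3.03). Cd2 had 1, 4, 4 and 3 reads in cxC26 scr and 24, 22, 23 and 27 reads in cxC26 IL6KOs1. It rose by 2.98 (SE 0.46, adjusted p = 0.000489; pooled ratio 8.28, counting interval 4.53 to 16.6) and had the widest gap between the groups among the 9 genes. Its SD over the knockout tumors was 0.16 log2 CPM, the same as that of Cd4.

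The proximal kinases and the adaptor had at least 10 reads in every control tumor, except Zap70 in the third. Their log2 fold changes (1.19 to 1.76) were below those of the chains (2.63 to 4.62), but the difference was not tested and the order did not hold with a pseudocount of 1 CPM, which gave 0.80 for Lck, 0.74 for Zap70 and 0.87 for Lat against 0.71 for Cd3d, 0.80 for Cd3e, 0.67 for Cd247 and 1.67 for Cd3g. Lck had 15, 25, 22 and 17 reads in cxC26 scr and 92, 32, 37 and 32 reads in cxC26 IL6KOs1. The first knockout tumor stood well above the other 3, and without it the log2 fold change of 1.19 (SE 0.343, adjusted p = 0.0177) became 0.87 (adjusted p = 0.0381). Zap70 had 12, 15, 1 and 10 reads in cxC26 scr and 39, 25, 18 and 18 reads in cxC26 IL6KOs1. The third control tumor, with 1 read, was far below the others. The log2 fold change of Zap70 was 1.76 (SE 0.624, adjusted p = 0.0447), and without that tumor it was 1.03 (adjusted p = 0.0562). The call was also lost without the fourth control tumor (adjusted p = 0.0583) and without each knockout tumor in turn (adjusted p = 0.0606 to 0.0895). Lat had 12, 13, 10 and 10 reads in cxC26 scr and 33, 39, 23 and 35 reads in cxC26 IL6KOs1. It varied least of all 9 genes in the control tumors (SD 0.12 log2 CPM) and rose by 1.52 (SE 0.295, adjusted p = 0.00194).

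**Figure D2:**
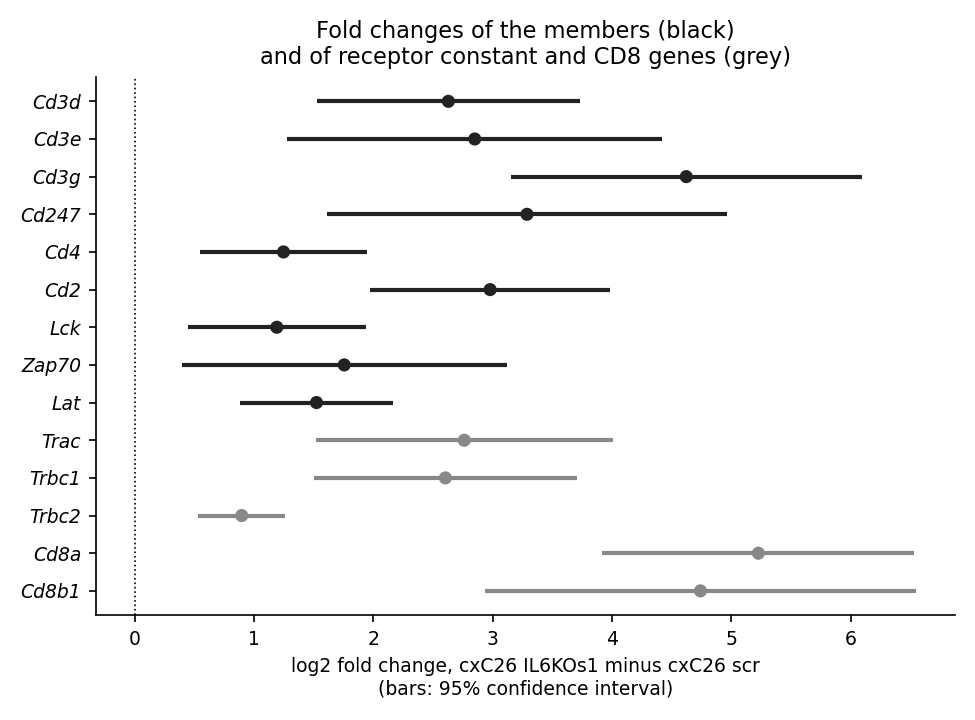
Log2 fold change (horizontal axis, cxC26 IL6KOs1 minus cxC26 scr) of the 9 genes in black and of receptor constant and CD8 genes in grey, with 95% confidence intervals from limma as bars. No interval crosses 0, and the intervals of the signalling chains are wider than those of Lck, Cd4 and Lat.

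To compare levels between genes, reads were divided by exon length and library size (RPKM). The length covers all annotated exons of a gene, 5329 bases for Cd247 and 4080 for Cd3e but 1815 for Cd3d. Exons not used in these tumors would lower a gene's level, so the order between genes rests on this length. In cxC26 IL6KOs1, Cd3e had 64 reads in all and Cd3d had 50. In the cxC26 IL6KOs1 tumors the mean level was 1.07 ± 0.576 RPKM for Lck, 0.917 ± 0.107 for Cd2, 0.812 ± 0.353 for Cd3g and 0.788 ± 0.209 for Lat (SD, n = 4). The ranges over tumors of these 4 genes overlapped. Cd4 (0.604 ± 0.0658), Zap70 (0.551 ± 0.194) and Cd3d (0.458 ± 0.132) followed, again with overlapping ranges. Cd3e (0.254 ± 0.111) and Cd247 (0.138 ± 0.036) were lowest in mean, and their ranges, 0.106 to 0.357 and 0.0924 to 0.176, overlapped too. The range of each gene also overlapped that of the next in order. Examples are Lat (0.527 to 1.02) with Cd4 (0.514 to 0.662), and Cd3d (0.28 to 0.571) with Cd3e. In the cxC26 scr tumors Lck (0.435 ± 0.111), Cd4 (0.265 ± 0.102), Lat (0.26 ± 0.023) and Zap70 (0.198 ± 0.123) were above the other 5 genes in mean level. Cd2 had 0.112 ± 0.0559 RPKM there, Cd3d 0.0607 ± 0.0308, Cd3e 0.038 ± 0.0381, Cd3g 0.034 ± 0.0415 and Cd247 0.0173 ± 0.0276. The ranges of these 5 genes overlapped, so that their order was not resolved at this depth. The range of Zap70 (0.0235 to 0.31) overlapped theirs as well.

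**Figure D3:**
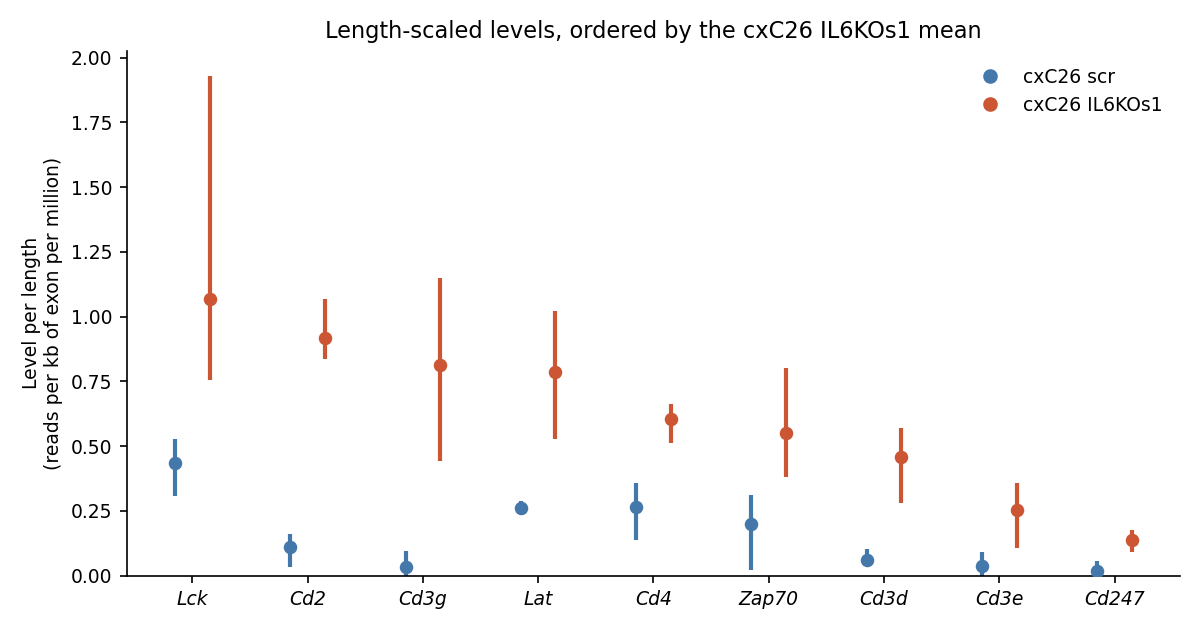
Level per length (vertical axis, RPKM) of the 9 genes, ordered by their mean in cxC26 IL6KOs1 (red) beside cxC26 scr (blue); points are means of 4 tumors and lines run from the lowest to the highest tumor. Lck, Cd2, Cd3g and Lat lead in the knockout tumors with overlapping ranges, and Cd3e and Cd247 are lowest in mean. The red range of each gene overlaps that of the next in order. The order rests on the length of all annotated exons.

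The receptor's own constant genes and the CD8 coreceptor are not among the 9 genes and were read beside them. Trac, the alpha constant gene, had 3, 10, 1 and 2 reads in cxC26 scr and 41, 22, 17 and 15 reads in cxC26 IL6KOs1 (log2 fold change 2.76, SE 0.571, adjusted p = 0.00293). Trbc1, a beta constant gene, had 2, 7, 5 and 3 reads against 47, 26, 29 and 11 reads (2.60, SE 0.505, adjusted p = 0.00195). In these genes too no control tumor reached a knockout tumor. Trbc2, the other beta constant gene, had 623, 576, 418 and 607 reads in cxC26 scr, where the 4 CD3 chains together had at most 19, and 824, 750, 1285 and 1197 reads in cxC26 IL6KOs1 (0.90, SE 0.167, adjusted p = 0.00149). Trbc1 and Trbc2 are near-identical, and reads shared between them could be split or lost in counting. The source of the Trbc2 reads was not tested. The delta constant gene Trdc had at most 7 reads in any tumor, and Trgc1, Trgc2 and Trgc4 had at most 6 and Trgc3 had 0 in every tumor, so none of these was tested. A further 3 gamma constant symbols of the list (Tcrg-C1, Tcrg-C2 and Tcrg-C4) matched no row.

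Cd8a, the alpha chain of CD8, had 0, 3, 1 and 1 reads in cxC26 scr and 92, 26, 48 and 56 reads in cxC26 IL6KOs1. It rose by 5.23 on the log2 scale (SE 0.599, adjusted p = 6.8e-05), more than any of the 9 genes. Cd8b1, the beta chain, had 0, 7, 0 and 0 reads against 25, 16, 30 and 32 reads (4.74, SE 0.827, adjusted p = 0.00102). Neither gene overlapped between the groups, and the single control tumor with more than 3 reads of either was again the second.

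Ratios within a tumor need no scaling by library size, and 3 were examined, as log2 ratios of reads with 0.5 added to each. Where reads are few, as for Cd8a and Cd3e in cxC26 scr, they still depend on depth and on the 0.5 added. The ratio of Cd4 to Cd8a was 3.52 ± 1.44 in cxC26 scr and -0.46 ± 0.72 in cxC26 IL6KOs1 (SD, n = 4). The difference of -3.98 had p = 0.0286 in a two-sided exact permutation test, the smallest p that 4 against 4 tumors allow, and 0.0857 after adjustment over the 3 ratios. The groups did not overlap. All control tumors had more Cd4 than Cd8a reads, and the second knockout tumor was the only one of its group that did. The control ratios rest on 5 Cd8a reads in all.

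The ratio of Cd4 to Cd3e was 2.93 ± 0.987 in cxC26 scr and 1.32 ± 0.817 in cxC26 IL6KOs1, and the difference of -1.60 did not pass (exact permutation p = 0.0571, adjusted p = 0.0857, groups overlapping). Cd3e relative to Ptprc, which encodes the leukocyte surface protein CD45, was higher by 1.82 in cxC26 IL6KOs1 (-6.70 ± 0.521 against -8.52 ± 1.56). That difference did not pass either (exact permutation p = 0.0857, adjusted p = 0.0857), as the second control tumor lay among the knockout tumors. Without that tumor it was 2.36 (exact permutation p = 0.0286, not adjusted). Dropping the only control tumor that overlapped left the groups apart, so this p was fixed by that choice and is no support. A p above the threshold does not show that these ratios were equal.

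**Figure D4:**
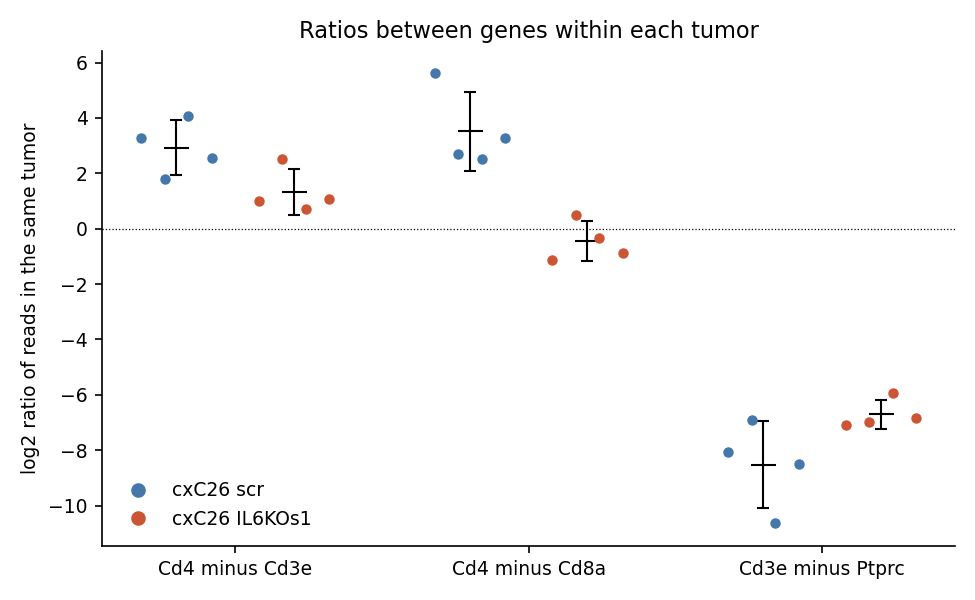
Log2 ratio of the reads of 2 genes within each tumor (vertical axis) for Cd4 to Cd3e, Cd4 to Cd8a and Cd3e to Ptprc, with cxC26 scr in blue, cxC26 IL6KOs1 in red, and the mean and SD of 4 tumors in black. The groups are separate for Cd4 to Cd8a, with means of 3.52 and -0.46, and overlap for the other 2 ratios.

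Genes of the wider receptor pathway moved mostly, but not all, in the same direction. Of 65 such genes outside the 9, 62 were in the table and 51 were tested, and 30 of these were higher, 6 lower and 15 not called. The median log2 fold change of the 51 was 1.03, and they include Trac, Trbc1, Trbc2, Cd8a and Cd8b1. Over all tested genes 17.9% were higher and 18.6% lower, the shares to set beside this and every count below. With so few genes per list, a count near these shares is not a result about the list. The genes named in each group below are the most highly expressed of that group, and any others were chosen after their values were seen.

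Of 9 tested costimulatory and surface genes, 4 were higher and 1 lower, with a median of 1.49. Thy1, a surface glycoprotein of mouse T cells that fibroblasts and other cells also carry, was by far the most abundant. It had 10807, 7888, 7208 and 7665 reads in cxC26 scr and 1612, 2028, 1791 and 1530 in cxC26 IL6KOs1, and it fell by 2.21 (SE 0.131, adjusted p = 8.31e-07). Thy1 thus moved opposite to the 9 genes. Cd48, a ligand of CD2 in the mouse, had 91, 100, 66 and 49 reads against 224, 95, 133 and 131 reads and rose by 0.96 (SE 0.249, adjusted p = 0.0106). Cd28, the main costimulatory receptor of naive T cells, rose by 3.39 (0, 7, 1 and 0 reads against 21, 7, 13 and 13; adjusted p = 0.00815).

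Among 9 further kinases and phosphatases, 7 were higher and none lower (median 1.03). Ptprc, a phosphatase that acts on Lck, had 663, 781, 796 and 897 reads in cxC26 scr and 2897, 812, 1438 and 1662 in cxC26 IL6KOs1, a rise of 1.03 (SE 0.263, adjusted p = 0.00972). Ptpn22, a phosphatase that restrains Lck and ZAP-70, had a log2 fold change of 0.10 (SE 0.183, adjusted p = 0.707).

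Of 10 tested adaptors and scaffolds, 6 were higher and 1 lower (median 0.93). Grb2, an adaptor of nearly all cells that binds LAT, had a log2 fold change of 0.02 (adjusted p = 0.92), and Nck2, a broadly expressed adaptor, fell by 0.57 (SE 0.118, adjusted p = 0.00302). Lcp2, which encodes SLP-76, the partner of LAT in blood cells, rose by 1.43 (176, 210, 123 and 141 reads against 682, 257, 444 and 380; adjusted p = 0.000457). Themis, a thymocyte and T cell protein, had 0 reads in all control tumors and 2, 4, 7 and 7 in the knockout tumors and was too scarce to be tested.

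Of 9 enzymes, exchange factors and members of the CARMA complex, 4 were higher and 1 lower (median 0.57). Bcl10, part of the complex that activates NF-kappaB, had a log2 fold change of -0.01 (adjusted p = 0.94). Plcg1, the phospholipase recruited by LAT and also present in many other cells, fell by 0.92 (1459, 1372, 1396 and 1446 reads against 909, 648, 695 and 671; SE 0.096, adjusted p = 3.53e-05). Of 9 tested inhibitors, 4 were higher and 3 lower (median 0.43). Dgkz, a kinase that consumes diacylglycerol, rose by 0.43 (SE 0.109, adjusted p = 0.00921), and the adaptor Dok1 rose by 0.43 (SE 0.096, adjusted p = 0.00445). The 3 that fell were Cbl, Ubash3b and Dgka, by 0.74, 0.89 and 0.51.

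**Figure D5:**
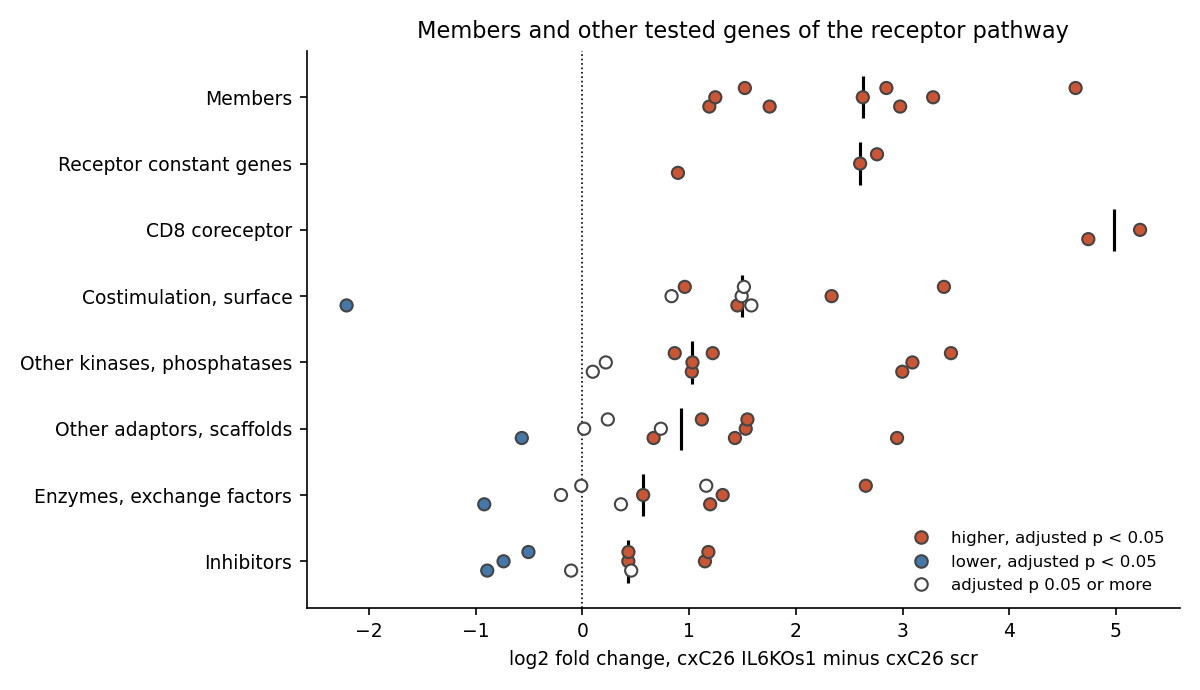
Log2 fold change (horizontal axis) of the 9 genes and of the other tested pathway genes by group, each point a gene, filled red where called higher, blue where called lower and white where not called, with black lines at medians. The medians run from 4.98 for CD8 and 2.63 for the 9 genes to 0.43 for inhibitors, and Thy1 is the point at -2.21.

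Markers of other cells that can carry these transcripts moved as well, and their part in the results was not tested. All 6 pan-leukocyte markers were higher (summed level 212 to 251 CPM in cxC26 scr, 417 to 804 in cxC26 IL6KOs1), among them Ptprc and Cd52 (1.53, adjusted p = 0.00029). The 9 genes together made up 3.3 to 6.06 CPM in cxC26 scr and 13.5 to 20.7 in cxC26 IL6KOs1. Of the 12 T cell markers, which include 3 of the 9 genes and the constant genes above, 7 were higher, 2 lower (Thy1 and Bcl11b) and 3 not called. Their summed level, of which Thy1 is the main part, was 544 to 712 CPM against 177 to 225 CPM.

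Of 8 natural killer cell markers 5 were tested, and 3 were higher and none lower (summed level 1.56 to 3.3 against 3.31 to 15.8 CPM). Ncr1, which encodes the natural killer cell receptor NKp46, had 0, 5, 2 and 0 reads against 55, 15, 3 and 5 (3.11, SE 1.01, adjusted p = 0.0309, groups overlapping). Klrb1c had 1, 5, 1 and 1 reads against 27, 1, 5 and 5 (1.57, adjusted p = 0.166), and Klra4 had 0 in all tumors. Klrd1, which encodes CD94 and is also found on some CD8 T cells, had 2, 1, 1 and 1 reads against 47, 17, 29 and 14 (3.89, adjusted p = 0.000116, groups not overlapping), and Gzma rose by 2.00 (adjusted p = 0.0266). Klrd1, Gzma and, below, Zbtb46 and Cdx2 were named after their values were seen. The first knockout tumor was the highest of its group in Ncr1 and Klrb1c. It was also the highest in Lck, Zap70 and Cd3g, but not in Cd3d, Cd3e, Cd247, Cd4, Cd2 or Lat. Among other genes it was highest in Trac, Trbc1, Cd8a, Adgre1, Csf1r and Ptprc, but lowest in Trbc2 and not highest in Cd8b1. These genes were named after their values were seen, and the place of this tumor was not tested.

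Among 5 regulatory T cell markers 1 was higher and 1 lower (summed level 9.29 to 13.9 against 5.52 to 11.1 CPM). Foxp3, the transcription factor that defines these cells, had 5, 11, 6 and 11 reads in cxC26 scr and 15, 6, 6 and 5 in cxC26 IL6KOs1 (-0.05, SE 0.469, adjusted p = 0.947). Il2ra, the alpha chain of the IL-2 receptor, had a log2 fold change of -0.06 (SE 0.46, adjusted p = 0.936). Of the gamma delta T cell markers, Sox13, which other cells also express, was the only one tested and rose by 0.91 (adjusted p = 0.00916; summed level 6.56 to 8.75 against 10.6 to 23.6 CPM).

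Macrophages and dendritic cells can carry Cd4. Of 8 macrophage markers 7 were higher (summed level 534 to 730 against 992 to 1710 CPM), with Adgre1, which encodes F4/80, up by 1.50 (adjusted p = 5.08e-05) and Csf1r up by 1.25 (adjusted p = 2e-05). Cd4 reads from such cells could not be counted apart, and their share in the rise of Cd4 was not tested. Of 8 dendritic cell markers 3 were higher and 1 lower (12.9 to 17.8 against 8.43 to 11.6 CPM). Xcr1 rose by 1.60 (adjusted p = 0.0221) and Flt3 had a log2 fold change of 1.44 (adjusted p = 0.0752), while Zbtb46, the most abundant of the list, fell by 2.42 (144, 190, 170 and 167 reads against 43, 24, 29 and 26; adjusted p = 6.34e-06).

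The B cell markers were scarce. Ms4a1 had 3, 1, 1 and 3 reads against 22, 2, 4 and 1, and of the 2 tested 1 was higher (summed level 1.74 to 2.74 against 2.38 to 9.17 CPM). All 6 tested mast cell markers were higher (8.01 to 11.2 against 22.6 to 142 CPM). Cpa3 had 23, 15, 15 and 13 reads against 55, 226, 277 and 295, and Mcpt4 45, 46, 29 and 34 against 100, 449, 564 and 479. The first knockout tumor was thus lowest of its group in mast cell genes.

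None of 4 tested platelet markers was called (26.4 to 42.3 against 27.9 to 56.2 CPM; Pf4 0.20, adjusted p = 0.608, and Ppbp -0.33, adjusted p = 0.732). Of the lymph node stroma markers, read in case a lymph node had been taken with a tumor, Glycam1 had at most 3 reads and Ccl21a at most 2 in any tumor, and Ccl19 had 0. Cxcl13 was the only one tested, and it was higher (3.03 to 5.39 against 4.69 to 45.2 CPM for the list). Of the epithelial markers 3 were higher and 1 lower (4.09 to 6.3 against 14.2 to 26.5 CPM). Krt8 rose by 1.46 (adjusted p = 0.0161) and Krt18 by 3.20 (adjusted p = 2.6e-06), while Cdx2, an intestinal transcription factor, had 32, 24, 34 and 17 reads against 1, 0, 0 and 0 and fell (adjusted p = 4.82e-05).

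Whether the 9 genes varied together within the groups was not tested. The mean deviation of the 9 genes from their group mean was 0.94 log2 CPM in the second control tumor and -0.61 in the third, against -0.18 to 0.25 in the knockout tumors. Single genes ran from 0.155 (Lat) to 2.145 (Cd247) in the second control tumor. In the third they went both ways, from -2.177 (Zap70, on 1 read) to 0.619 (Cd2). Many of the control values rest on few reads. Without the second control tumor all 9 genes were still called higher, and without the first knockout tumor 8 were, Zap70 being the exception. Among 12852 genes with a mean of at least 20 reads, the one whose deviations were most like this mean was Ighm, the constant gene of IgM heavy chains (Pearson r = 0.956 over 8 tumors). It had 35, 163, 11 and 36 reads in cxC26 scr and 426, 246, 379 and 284 in cxC26 IL6KOs1. Nagk (r = 0.953), Phf11c (0.946), Clcn3 (0.945), Wdr76 (0.942), Dnajb1 (0.935), Jam3 (0.929) and Hspa1b (0.929) came next. Of these 8 genes Ighm, Phf11c and Clcn3 were called higher and the other 5 were not called. These correlations are the highest of many over few tumors that share their normalization and are given as a description.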

How the data were processed

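RNA-seq of 8 tumors was used. Per the study's methods and the submitters' processing notes, reads were demultiplexed with bcl2fastq 2.17, trimmed with Trimmomatic, aligned to mm10 with Hisat2 and counted with featureCounts. The authors deposited log2 CPM values from limma-voom for 27179 genes. Annotation version and strand setting are not given in the sources used here. Groups came from the sample titles, and nothing states that tumors came from separate mice beyond their labels, so p-values measure the spread between these samples. Reads were recovered by inverting the transformation at each tumor's lowest value. Totals of 14158989 to 17048062 reads set the precision of low genes.

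The deposited log2 CPM values were fitted with limma 3.58.1 (R 4.3.3; lmFit, eBayes with trend), without covariates, over the 14931 genes with a mean of at least 5 reads, with Benjamini-Hochberg adjustment at 0.05. Ratios were compared by exact permutation over 70 splits. The script was tested on simulated data. Exon lengths came from GENCODE M21. Pooled ratios have exact conditional (Clopper-Pearson) intervals. Alternatives were 3 other filters, quantile normalization, median re-centring, a replicate block, no variance trend, voom weights, a pseudocount of 1 CPM and each tumor left out.

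The 9 genes and all lists were chosen with earlier results of these data known. Genes named were all 9, the 2 most highly expressed of each pathway list, all receptor constant and CD8 genes, the first 2 of each marker list, the 8 genes most like the 9, and Il6. A gene that this rule picks is not reported here. Replicate numbers did not pair the tumors (correlations of same-numbered deviations -0.078 to 0.019).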

Additional observations from a re-analysis of the deposited data

Results flagged for a closer look

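A search of 24 groups of 4 values for a tumor far from the other 3 found 2, where chance gives about 1.2. Lck in the first cxC26 IL6KOs1 tumor was at 2.51 log2 CPM, with the other 3 tumors between 1.17 and 1.25. Zap70 in the third cxC26 scr tumor was at -3.25 log2 CPM, on 1 read, with the other 3 between -0.55 and -0.06.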

How the results depend on the processing

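No alternative reversed the direction of any of the 9 genes. A pseudocount of 1 CPM lowered the log2 fold changes to 1.67 for Cd3g, 1.12 for Cd2, 0.67 for Cd247, 0.71 for Cd3d, 0.80 for Cd3e, 0.75 for Cd4, 0.80 for Lck, 0.74 for Zap70 and 0.87 for Lat, since it outweighs the few reads of low genes, and all 9 stayed called. Cd3d, Cd3e, Cd3g, Cd247, Cd4, Cd2 and Lat stayed called under every alternative in which they were tested. Lck lost its call without a filter (adjusted p = 0.067) and kept it in 16 of 17 alternatives. Zap70 lost it in 9 of 16, among them quantile normalization (adjusted p = 0.0581) and no variance trend (adjusted p = 0.0819), with adjusted p from 0.0188 to 0.154. With a mean of at least 20 reads required, 4 genes were tested (Cd3g, Cd4, Lck and Lat) and all 4 were higher. In that setting 19 of 34 pathway genes and 2501 of all 12856 tested genes were higher. The counts were lower since fewer genes were tested. Leaving out each tumor gave 8 to 9 of the 9 genes, 26 to 30 pathway genes and 2121 to 2681 of all genes higher. The replicate block kept 9 genes higher, 30 pathway genes higher and 6 lower, and called 2609 genes higher and 2702 lower. It changed no call on the 9 genes, and 0 of 4 control tumors correlated best with its own number. Under the replicate block the ratio of Cd4 to Cd8a differed by -3.98 with p = 0.125, the smallest an exact sign-flip test of 4 pairs allows. Leaving out each tumor gave -4.32 to -3.28 for that ratio and 1.11 to 2.36 for Cd3e to Ptprc, which passed without the second control tumor alone (exact permutation p = 0.0286). An offset of 2 reads gave -2.98 for Cd4 to Cd8a, -0.93 for Cd4 to Cd3e and 1.06 for Cd3e to Ptprc. With 6 to 12 control reads for each signalling chain and Cd2, the depth limits how precisely these folds are known.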
